A study of Mus musculus with 12 samples.

Results

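The collagen chain genes and the lysyl oxidase genes of the mouse were examined in kidney RNA from 4 groups of 3 mice. Members were the protein-coding genes whose symbol is Col, a number, a and a number, or Lox and Loxl1 to Loxl4. This gave 49 of the 54532 genes listed, of which 44 are collagen chains and 5 are lysyl oxidases. The chains were divided into 11 fibrillar chains, 8 basement membrane chains (the type IV chains, Col15a1 and Col18a1) and 25 other chains. Members were set by gene symbol and not by a measured value, but with earlier results of these data known.

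One table held 3 β-catenin knockout mice (β-catenin-/-) and 3 wild-type mice, all after UUO, in which the left ureter is tied off for good and the obstructed kidney scars. The other held 3 mice labelled CD44 knockout (CD44-/-) and 3 wild-type mice, all after UIRI. UIRI stops and then restores the blood flow of one kidney. For its UIRI mice the study describes 30 min without blood for the left kidney. It gives removal of the right kidney on day 10 and collection on day 11. The study does not name CD44 knockout mice, so these times may not hold for the mice sequenced after UIRI. All mice are labelled C57BL/6. The age is given as 6 to 8 weeks, and the sex as male, for the bought C57BL/6 mice and for neither knockout, and the origin of the CD44 knockout is not given in the sources used here. The time after UUO is not given in the sources used here. The β-catenin knockout was made with floxed β-catenin and a Cre driven by the Ksp-cadherin (Cadherin-16) promoter, which acts in collecting ducts, loops of Henle, distal tubules and part of the proximal tubules, so that interstitial cells keep the gene. The controls are labelled wild-type, and mice with this Cre alone are not described as controls. Every group had injured kidneys and no uninjured kidney was analysed here, so each comparison is between genotypes after the same injury.

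Collagens are trimers of 3 chains wound into a helix. The fibrillar chains (types I, II, III, V, XI, XXIV and XXVII) form the cross-banded fibrils that accumulate in scarred kidney, where fibroblasts and pericytes of the interstitium are their main source. Type IV chains form the sheet-like network under tubules, glomeruli and vessels, and type XV and type XVIII collagens are basement membrane proteins that carry sugar side chains. Lysyl oxidases are copper enzymes that oxidise lysines of collagen and elastin, the step from which covalent crosslinks form and by which the matrix becomes stiff and resists breakdown.

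Levels are in FPKM, the number of fragments of a gene divided by its length and by the depth of the library, and can therefore be compared between chains. From 15940405 to 20737443 reads per library had been assigned to genes. Ctnnb1, which encodes β-catenin, had 84.7, 71.4 and 71.7 FPKM in β-catenin knockout mice, against 91.2, 86.7 and 98.5 FPKM in wild-type mice after UUO, and did not pass the test (adjusted p = 0.189, limma). Cd44 had 19.0, 11.97 and 13.9 FPKM in the mice labelled CD44 knockout, against 19.9, 16.3 and 17.8 FPKM in wild-type mice after UIRI. These ranges overlap (log2 fold change −0.27, adjusted p = 0.339, limma), so the gene's level does not bear the label out. Which part of Cd44 the knockout lacks is not given in the sources used here. Labelled CD44 knockout mouse 2 lay nearest to the wild-type mice among the labelled mice, and calls after UIRI are given with and without it. The kidney was sequenced whole, and fewer cells of a type cannot be told apart from less RNA per cell.

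Of the 49 members, 31 were tested after UUO, the others having a 6-library mean under 0.5 FPKM. At an adjusted p under 0.05, 8 were lower and 1 was higher in β-catenin knockout mice. Among all 16166 genes tested, 4.36% were lower and 6.21% were higher. The 8 were Col3a1, Col5a2, Col15a1, Col8a1, Lox, Loxl1, Loxl2 and Loxl3, and the higher one was Col5a3. The median log2 fold change, on the scale of log2(FPKM + 1), was −0.78 over the 7 fibrillar chains tested, −0.02 over the 8 basement membrane chains, −0.27 over the 11 other chains and −0.97 over the 5 lysyl oxidases, beside 0.01 over all genes tested. For a single gene, permuting 3 against 3 mice exactly cannot give a p below 0.1, so calls rest on limma, in which genes lend each other their estimate of spread.

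**Figure D1:**
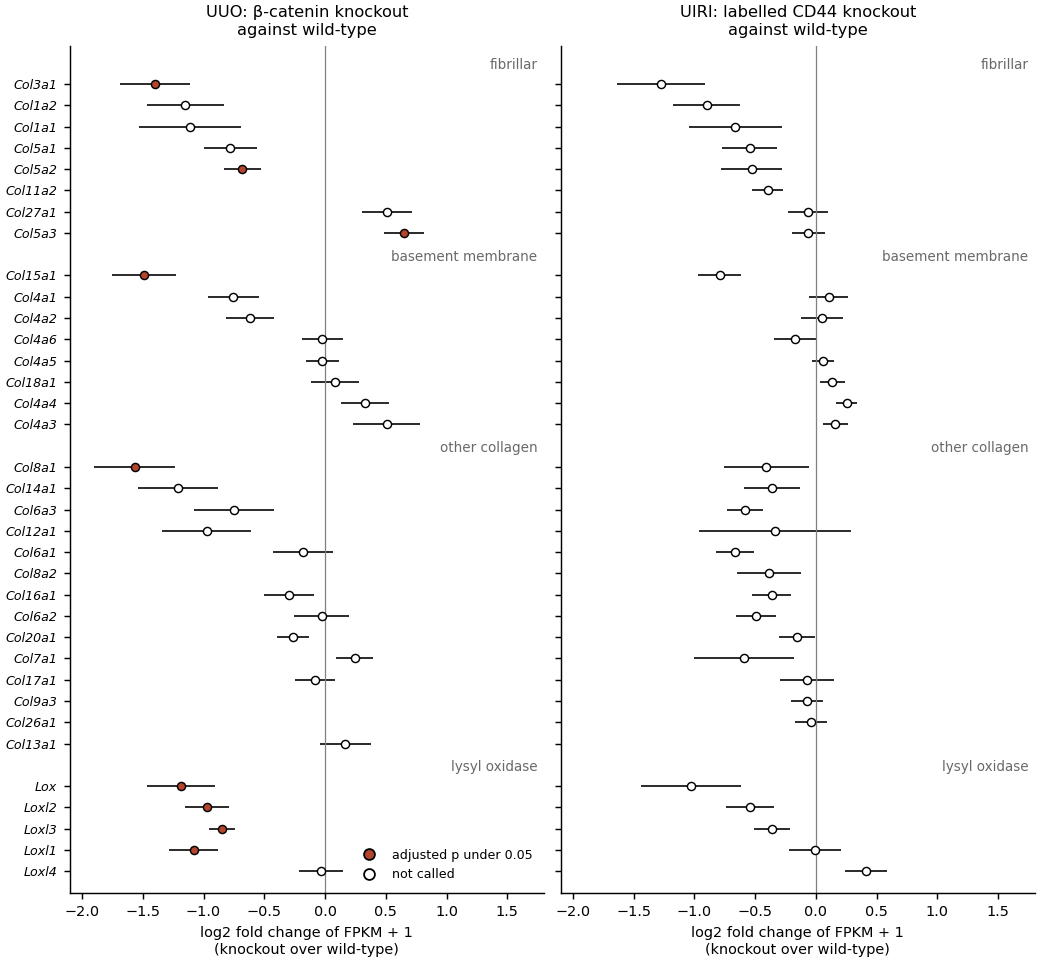
Log2 fold change of FPKM + 1 (knockout over wild-type, x axis) of each tested member, by class, after UUO (left, β-catenin knockout) and UIRI (right, mice labelled CD44 knockout). Bars are standard errors from limma, and filled points passed an adjusted p of 0.05. After UUO 9 points are filled, 8 of them left of 0 and Col5a3 right of it, and after UIRI 0 are filled.

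Among the fibrillar chains, Col3a1 and Col5a2 were lower in β-catenin knockout mice than in wild-type mice after UUO. Col3a1, whose product forms the fine reticular fibrils of the interstitium, had 32.9, 14.0 and 16.3 FPKM in β-catenin knockout mice, against 58.0, 52.3 and 50.7 FPKM in wild-type mice. All 3 knockout mice lay below all 3 wild-type mice (log2 fold change −1.40, standard error 0.29, adjusted p = 0.0278, limma). Col5a2, which helps to start and to limit the width of type I fibrils and which lies beside Col3a1 on chromosome 1, had 5.34, 4.40 and 4.999 FPKM in knockout mice, against 9.15, 9.83 and 6.72 FPKM in wild-type mice. The groups did not overlap (log2 fold change −0.68, standard error 0.15, adjusted p = 0.0342, limma).

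The chains of type I collagen, the bulk of scar collagen, were lower on average but more uneven among mice. Col1a1 had 43.4, 12.7 and 14.6 FPKM in β-catenin knockout mice, against 53.8, 40.8 and 40.6 FPKM in wild-type mice. Knockout mouse 1 lay within the wild-type range and the other 2 far below it, and the difference did not pass the test (log2 fold change −1.11, standard error 0.42, adjusted p = 0.132, limma). Col1a2 had 27.3, 10.98 and 14.0 FPKM in knockout mice, against 42.3, 41.1 and 29.5 FPKM in wild-type mice. Here mouse 1 was again the highest knockout mouse but lay under the lowest wild-type mouse, and the adjusted p was 0.0598 (limma, log2 fold change −1.15, standard error 0.32). Without knockout mouse 1 both type I chains passed, with adjusted p-values of 0.0239 for Col1a1 and 0.0291 for Col1a2, the lowest over their 13 alternatives, which reach 0.318 and 0.164.

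The other fibrillar chains tested were Col5a1, Col5a3 and Col27a1. Col5a1, the main type V chain, had 2.79 to 5.65 FPKM in knockout mice and 6.43 to 8.31 FPKM in wild-type mice (adjusted p = 0.0632, limma). Col5a3, the least widespread type V chain, went the other way. It had 2.97, 2.93 and 2.75 FPKM in β-catenin knockout mice, against 2.07, 1.39 and 1.06 FPKM in wild-type mice. The groups did not overlap and the knockout mice were close to each other. The difference of 0.65 on the log2 scale (standard error 0.16, adjusted p = 0.0485, limma) was at the edge of the threshold and lost in 9 of 13 alternatives. Col27a1, a fibrillar chain best known from cartilage, also had its 3 knockout mice above its wild-type mice, with 3.76 to 7.09 FPKM against 2.85 to 3.57 FPKM, and did not pass (adjusted p = 0.151, limma). Thus, of the 7 fibrillar chains tested, 4 had all knockout mice below and 2 had all knockout mice above the wild-type mice. Over all genes tested, the groups lay apart in this way for 15.9% (knockout mice lower) and 19.6% (knockout mice higher).

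**Figure D2:**
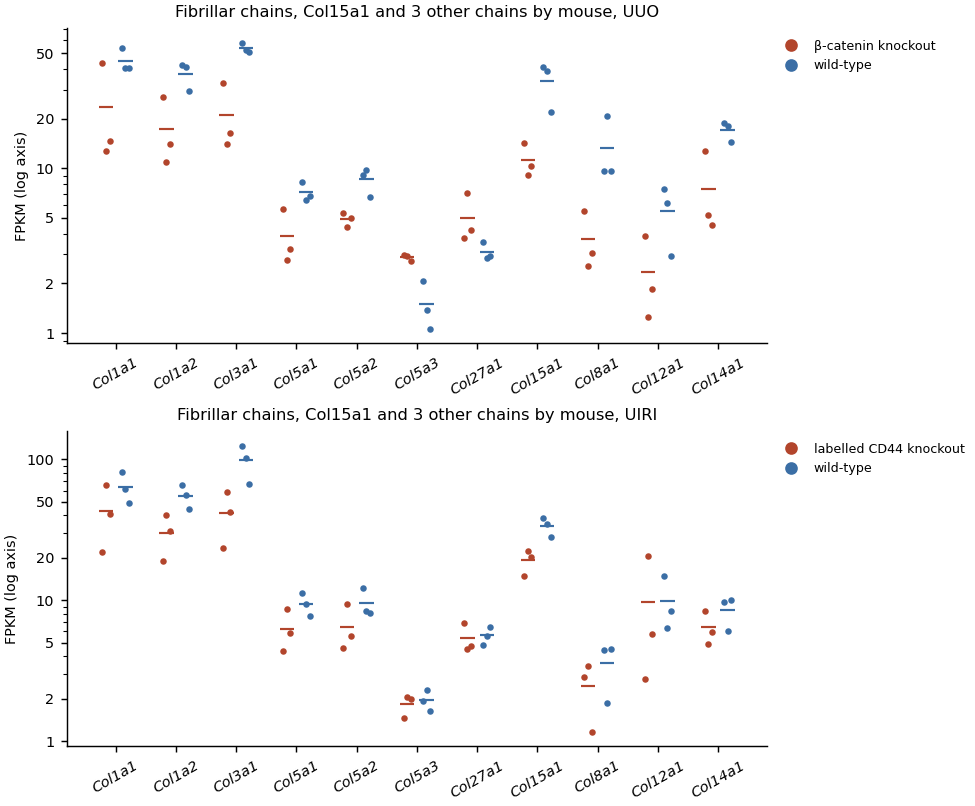
FPKM (log axis) of 7 fibrillar chains, Col15a1 and 3 other chains in each mouse after UUO (top) and UIRI (bottom), knockout mice left of wild-type mice. Each point is 1 mouse, ordered by mouse number, and lines are means of 3 mice. After UUO the β-catenin knockout mice lie below the wild-type mice for Col3a1 (14.0 to 32.9 against 50.7 to 58.0 FPKM) and above them for Col5a3.

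The basement membrane chains held the highest levels of all collagens, and 1 of the 8 was called. Col15a1, which links fibrils to the basement membranes of interstitium and vessels, had 14.2, 9.11 and 10.4 FPKM in β-catenin knockout mice, against 41.0, 39.2 and 21.9 FPKM in wild-type mice. The highest knockout mouse was below the lowest wild-type mouse, wild-type mouse 3, which stood well under the other 2. It was the 1 chain of this class that passed (log2 fold change −1.49, standard error 0.26, adjusted p = 0.0192, limma). Col18a1, the parent protein of endostatin, had 140.3, 113 and 85.2 FPKM in knockout mice, against 115, 105 and 94.6 FPKM in wild-type mice, and the groups overlapped (log2 fold change 0.08, standard error 0.20, adjusted p = 0.81, limma).

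The 6 type IV genes lie in 3 head-to-head pairs, each pair reading outward from one short region, and none of the 6 passed the test after UUO. Col4a1 and Col4a2 encode the chains of the network found in nearly every basement membrane. Col4a1 had 127, 76.0 and 82.8 FPKM in knockout mice, against 150.1, 149 and 175 FPKM in wild-type mice. Col4a2 had 97.0, 58.5 and 62.8 FPKM in knockout mice, against 108, 107 and 112 FPKM in wild-type mice. Both had all knockout mice below all wild-type mice, with mouse 1 the highest of the knockout mice, and neither passed the test (log2 fold changes −0.76 and −0.62, standard errors 0.21 and 0.20, adjusted p = 0.0611 and 0.0884, limma).

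In the other pairs, Col4a3, Col4a4 and Col4a5 encode the chains of the glomerular and, in part, the tubular basement membrane. They are the ones altered in Alport syndrome. Col4a3 had 13.1, 11.6 and 18.5 FPKM in knockout mice, against 14.1, 6.47 and 9.68 FPKM in wild-type mice. Col4a4 had 15.8, 15.3 and 20.8 FPKM in knockout mice, against 17.2, 10.2 and 13.8 FPKM in wild-type mice. For both, knockout mouse 3 was highest and wild-type mouse 1 lay among the knockout mice, with log2 fold changes of 0.51 and 0.33 and adjusted p-values of 0.263 and 0.315 (limma). Col4a5 had 7.47, 7.74 and 8.88 FPKM in knockout mice, against 9.33, 6.77 and 8.52 FPKM in wild-type mice. Col4a6 was the lowest of the 6, with 0.867, 0.599 and 1.02 FPKM in knockout mice, against 1.11, 0.603 and 0.878 FPKM in wild-type mice. Both overlapped fully, with fold changes near 0 on the log2 scale (−0.02 each). The level of Col4a1 over that of Col4a3 was 9.7, 6.56 and 4.47 in knockout mice, against 10.6, 23.0 and 18.1 in wild-type mice, ranges that do not overlap. Col4a1 over Col4a2 did not overlap either, at 1.30 to 1.32 in knockout mice and 1.38 to 1.56 in wild-type mice. Col4a3 over Col4a4 and Col4a5 over Col4a6 overlapped after UUO, and all of these type IV ratios overlapped after UIRI. The ratios were picked from many possible ones and were not tested.

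**Figure D3:**
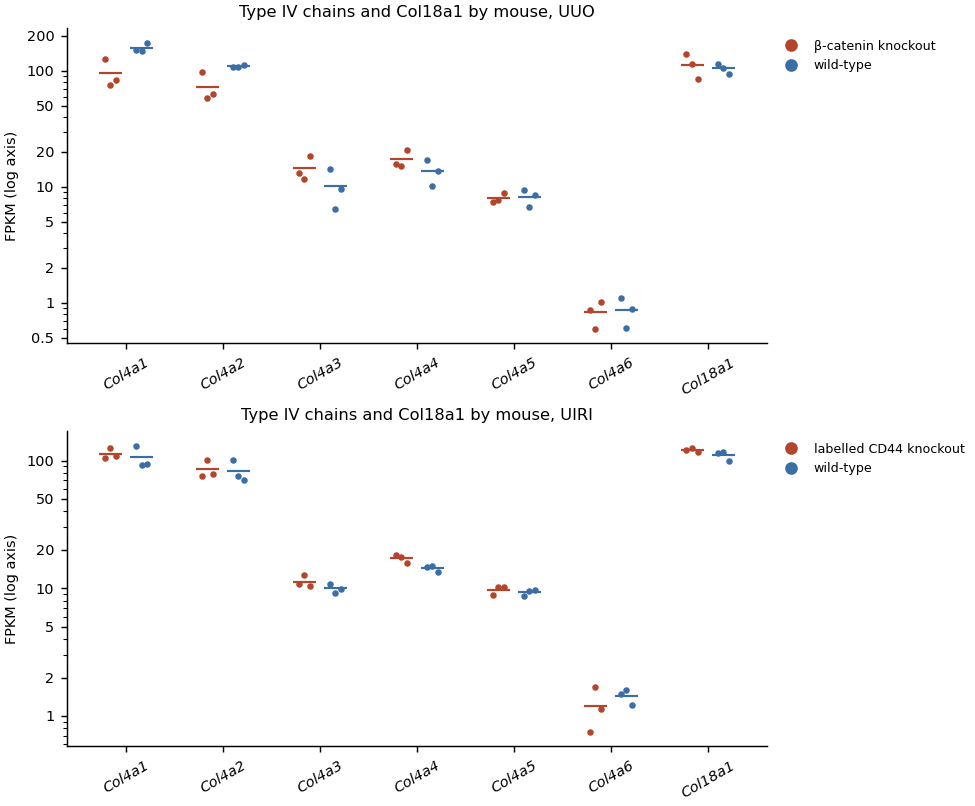
FPKM (log axis) of the 6 type IV chains and Col18a1 in each mouse after UUO (top) and UIRI (bottom), knockout mice left of wild-type mice. Each point is 1 mouse and lines are means of 3 mice. After UUO the knockout mice lie below the wild-type mice for Col4a1 and Col4a2 and overlap with them for the other 5 genes.

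The start sites show how close the pairs are. In GRCm38 the annotated starts of Col4a1 (minus strand) and Col4a2 (plus strand) are at 11312826 and 11312805 on chromosome 8, so that the genes overlap by 22 bases. Those of Col4a4 and Col4a3 are 72 bases apart on chromosome 1, and those of Col4a6 and Col4a5 are 1309 bases apart on the X chromosome. Promoter windows of 300 bases (250 before and 50 from the start, RefSeq, GRCm38.p6) were found for 36 of the 49 members, with 39 windows in all. The windows below are those of the 3 chains that had all knockout mice below all wild-type mice in both tables (Col3a1, Col1a2 and Col15a1) and of the pair Col4a1 and Col4a2, whose windows share 78 bases. They lie at chr1:45311288-45311587 (plus), chr6:4505368-4505667 (plus), chr4:47207762-47208061 (plus), chr8:11312777-11313076 (minus) and chr8:11312555-11312854 (plus). Capitals mark every match, on either strand, of 4 short motifs. These are TATAAA, a form of the TATA box, and CCAAT, bound by the factor NF-Y. The others are GGGCGG, the GC box bound by Sp1, and CTTTGA, the core bound by TCF and LEF factors, partners of β-catenin.
Col3a1: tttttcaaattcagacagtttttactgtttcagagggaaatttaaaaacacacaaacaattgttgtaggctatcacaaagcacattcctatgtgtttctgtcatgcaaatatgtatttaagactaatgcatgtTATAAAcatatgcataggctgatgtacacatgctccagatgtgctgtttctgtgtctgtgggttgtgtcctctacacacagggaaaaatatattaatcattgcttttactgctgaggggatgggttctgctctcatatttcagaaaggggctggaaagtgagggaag
Col1a2: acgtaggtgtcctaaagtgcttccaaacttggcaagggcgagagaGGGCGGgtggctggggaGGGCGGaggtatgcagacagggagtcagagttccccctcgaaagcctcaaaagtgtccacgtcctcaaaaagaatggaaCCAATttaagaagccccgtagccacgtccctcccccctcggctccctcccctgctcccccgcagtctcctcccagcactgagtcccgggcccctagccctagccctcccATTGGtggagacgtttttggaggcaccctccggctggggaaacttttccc
Col15a1: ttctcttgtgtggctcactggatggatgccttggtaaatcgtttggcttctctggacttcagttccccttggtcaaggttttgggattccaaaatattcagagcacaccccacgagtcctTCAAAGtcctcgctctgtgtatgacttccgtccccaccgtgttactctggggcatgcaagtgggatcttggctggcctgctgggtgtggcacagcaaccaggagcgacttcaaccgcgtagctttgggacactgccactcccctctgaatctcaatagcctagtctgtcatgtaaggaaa
Col4a1: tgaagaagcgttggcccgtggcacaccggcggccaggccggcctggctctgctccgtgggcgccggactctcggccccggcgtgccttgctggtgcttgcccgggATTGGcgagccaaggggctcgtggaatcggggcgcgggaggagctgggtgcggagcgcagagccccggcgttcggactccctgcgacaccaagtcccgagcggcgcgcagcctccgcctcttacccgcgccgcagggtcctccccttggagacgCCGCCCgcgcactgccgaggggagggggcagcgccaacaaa
Col4a2: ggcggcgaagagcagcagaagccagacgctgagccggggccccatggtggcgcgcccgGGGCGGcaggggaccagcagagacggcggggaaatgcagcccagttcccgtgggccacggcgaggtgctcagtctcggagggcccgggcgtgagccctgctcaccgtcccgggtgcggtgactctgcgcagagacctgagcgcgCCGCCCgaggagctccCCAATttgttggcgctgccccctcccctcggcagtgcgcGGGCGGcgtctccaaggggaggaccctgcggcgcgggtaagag

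The Col3a1 window had 1 TATA box, which begins at −117 from the start, and 37.7% G and C. Those of Col4a1 and Col4a2 had no TATA box and 74% and 73.7% G and C. Col15a1 had the 1 TCF/LEF core among these 5 windows. Over the members' 39 windows, a GC box was present in 24 (61.5%), beside 35.7% of the 32851 windows of all genes, a CCAAT box in 13 (33.3%, beside 37.4%), a TATA box in 5 (12.8%, beside 13.6%) and the TCF/LEF core in 9 (23.1%, beside 16.0%). These matches describe letters in the windows only.

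Of the 25 other collagen chains, 11 were tested after UUO and 1 was called. Col8a1, a short network-forming collagen of vessel walls, had 5.50, 2.57 and 3.08 FPKM in β-catenin knockout mice, against 9.63, 20.7 and 9.64 FPKM in wild-type mice. The groups did not overlap, and wild-type mouse 2 stood far above the other wild-type mice. The log2 fold change was −1.57, with a standard error of 0.33 (adjusted p = 0.0302, limma), and −1.22 without wild-type mouse 2 (adjusted p = 0.0734), in a range of adjusted p of 0.0125 to 0.0909 over all alternatives.

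Col12a1, Col14a1, the type VI chains and Col20a1, described next, were picked after their values were seen. Col14a1, which coats the surface of type I fibrils, had 12.7, 5.20 and 4.54 FPKM in knockout mice, against 18.9, 18.2 and 14.4 FPKM in wild-type mice, without overlap (adjusted p = 0.058, limma). Col12a1, its relative, had 1.25 to 3.90 FPKM in knockout mice and 2.95 to 7.48 FPKM in wild-type mice, with overlap (adjusted p = 0.126, limma). The type VI chains, which form beaded filaments around cells, did not pass: Col6a1 and Col6a2 had log2 fold changes of −0.18 and −0.03 and Col6a3 one of −0.75, all with overlap and adjusted p-values of 0.664, 0.946 and 0.177 (limma). Col20a1, present at under 1 FPKM, had 0.531, 0.587 and 0.591 FPKM in knockout mice, against 0.922, 0.82 and 0.927 FPKM in wild-type mice, and did not pass (adjusted p = 0.222, limma). Col7a1, the anchoring fibril chain, and Col13a1, a membrane-bound chain, passed the filter only through the knockout mice, in which they averaged 0.637 and 0.638 FPKM, against 0.377 and 0.434 FPKM in wild-type mice. Col16a1 and Col17a1 overlapped.

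Of the 5 lysyl oxidases, 4 were lower in β-catenin knockout mice than in wild-type mice after UUO. Lox, the founding enzyme, had 7.66, 3.83 and 9.56 FPKM in β-catenin knockout mice, against 16.1, 14.4 and 18.7 FPKM in wild-type mice. Loxl1, which is needed above all for elastic fibres, had 19.1, 11.9 and 14.7 FPKM in knockout mice, against 30.6, 40.3 and 28.5 FPKM in wild-type mice. In both genes every knockout mouse was below every wild-type mouse, with log2 fold changes of −1.18 (standard error 0.28, adjusted p = 0.0397, limma) for Lox and −1.08 (standard error 0.20, adjusted p = 0.0211) for Loxl1.

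Loxl2, which acts on type IV collagen among its substrates, had 5.795, 3.15 and 4.03 FPKM in knockout mice, against 9.61, 9.15 and 8.98 FPKM in wild-type mice. Loxl3 had 2.11, 2.06 and 2.34 FPKM in knockout mice, against 4.85, 4.95 and 4.33 FPKM in wild-type mice. Loxl3 had the smallest standard error of the family. Loxl2 and Loxl3 were free of overlap, with log2 fold changes of −0.97 (standard error 0.18, adjusted p = 0.0214, limma) and −0.85 (standard error 0.11, adjusted p = 0.0098). Loxl4 had 1.61, 1.03 and 1.36 FPKM in knockout mice, against 1.68, 0.912 and 1.62 FPKM in wild-type mice, with full overlap (log2 fold change −0.03, adjusted p = 0.922, limma). Loxl3 shares bases with Htra2, which averaged 9.29 FPKM, and the counting is not stated to use strand.

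**Figure D4:**
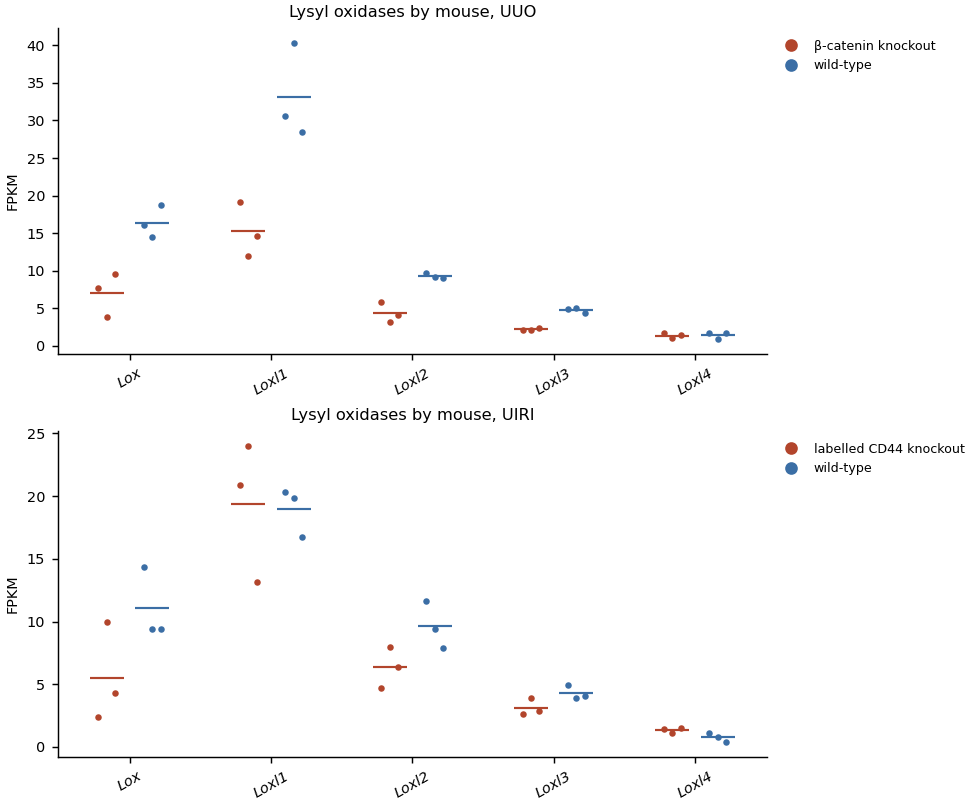
FPKM of the 5 lysyl oxidases in each mouse after UUO (top) and UIRI (bottom), knockout mice left of wild-type mice. Each point is 1 mouse and lines are means of 3 mice. After UUO the knockout mice lie below the wild-type mice for all genes except Loxl4, and after UIRI the groups overlap for all genes except Loxl4, whose labelled CD44 knockout mice lie above.

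These calls after UUO depended on single mice. Loxl3 was the only member called lower without wild-type mouse 1, where 1.98% of all genes were lower, without wild-type mouse 2 (0.605% of all genes) and with no filter on low values (0.652% of all genes). It was the only member past the threshold in all 13 alternatives (adjusted p 0.0048 to 0.0479, limma). Members called lower numbered 2 without knockout mouse 2 (beside 1.69% of all genes), 5 without knockout mouse 3 (5.05%) and 6 without wild-type mouse 3 (3.28%). Without knockout mouse 1, the mouse highest of its group for 21 of the 31 tested members, they numbered 12, beside 1.82% of all genes. For those 21, leaving this mouse out lowers the knockout mean by construction. voom on reads recovered from the FPKM values called 12 lower and 1 higher, beside 6.33% and 7.62% of all genes.

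Summed over a class, FPKM showed the same order of change in the levels themselves. The fibrillar chains together had 122, 55.5 and 60.7 FPKM in β-catenin knockout mice, against 178, 155 and 139 FPKM in wild-type mice. The basement membrane chains together had 416, 292 and 290.5 FPKM in knockout mice, against 455, 424 and 437 FPKM in wild-type mice. The lysyl oxidases together had 36.2, 22.0 and 31.9 FPKM in knockout mice, against 62.8, 69.8 and 62.1 FPKM in wild-type mice. None of these sums overlapped between the groups, and the log2 ratio of the group means was −0.99 for fibrillar chains, −0.40 for basement membrane chains, −0.71 for other chains and −1.11 for lysyl oxidases. The ratio of fibrillar to basement membrane FPKM was 0.293, 0.19 and 0.209 in knockout mice, against 0.391, 0.366 and 0.318 in wild-type mice, and knockout mouse 1 lay nearest to the wild-type mice. These sums are descriptions and were not tested.

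**Figure D5:**
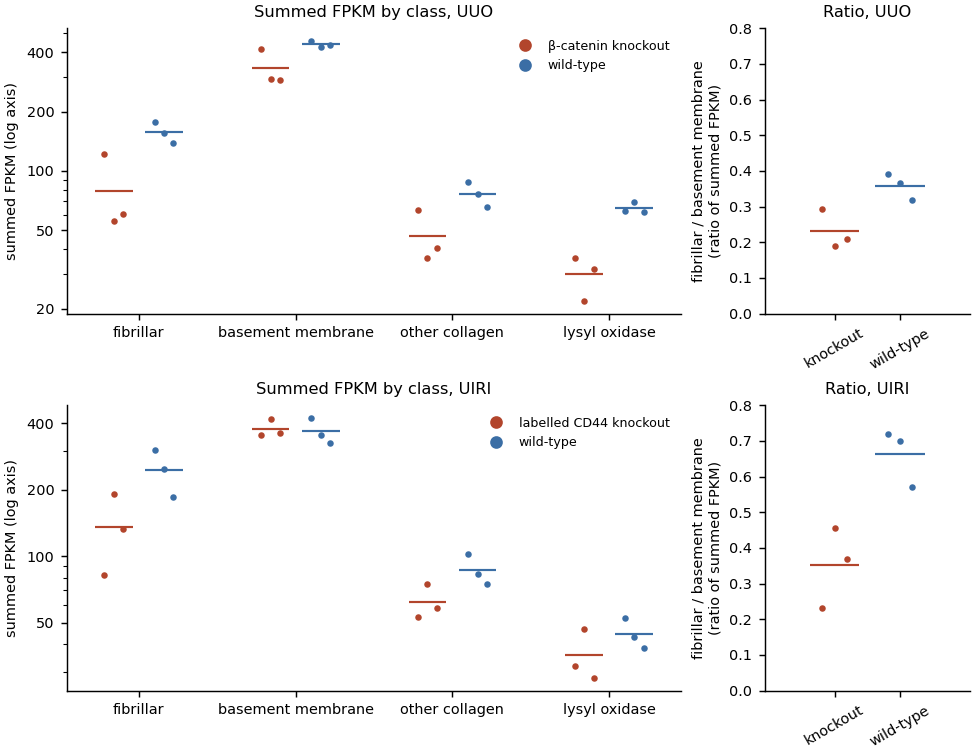
Left, summed FPKM (log axis) of the members of each class in each mouse; right, summed FPKM of fibrillar chains divided by that of basement membrane chains; UUO above, UIRI below, knockout mice left of wild-type mice. Each point is 1 mouse and lines are means of 3 mice. The ratio is below that of every wild-type mouse in every knockout mouse, at 0.19 to 0.293 against 0.318 to 0.391 after UUO and at 0.232 to 0.456 against 0.571 to 0.72 after UIRI.

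Collagen chains are hydroxylated, glycosylated and folded in the endoplasmic reticulum, trimmed outside the cell and laid down with partner proteins, and 42 such genes were examined, of which 36 were tested. After UUO 6 were lower and none was higher, beside 4.36% and 6.21% of all genes, with a median log2 fold change of −0.30. Of 17 tested genes of modification and folding, Serpinh1 and P3h3 were lower in knockout mice. Serpinh1, the collagen chaperone HSP47, had 79.4, 58.3 and 60.9 FPKM in β-catenin knockout mice, against 111, 132 and 138 FPKM in wild-type mice, without overlap (log2 fold change −0.94, adjusted p = 0.0186, limma). P3h3, a prolyl hydroxylase family member, averaged 5.15 ± 1.02 FPKM in knockout mice and 8.94 ± 1.60 FPKM in wild-type mice (SD, n = 3 each; adjusted p = 0.0454, limma). Sparc, a collagen-binding protein, and P4ha1, a prolyl 4-hydroxylase subunit, had adjusted p-values of 0.0547 and 0.0934.

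Of the 9 partners of fibril assembly, 3 were lower in knockout mice after UUO. Bgn (biglycan) had 91.9, 45.9 and 62.3 FPKM in β-catenin knockout mice, against 187, 208 and 150.4 FPKM in wild-type mice, with a log2 fold change of −1.48 (adjusted p = 0.0188, limma). Dcn (decorin), like biglycan a small proteoglycan that binds fibrils, averaged 7.14 ± 2.33 FPKM in knockout mice and 14.6 ± 1.11 FPKM in wild-type mice (SD, n = 3 each; adjusted p = 0.0345, limma). Fn1 (fibronectin), on which fibrils are seeded, averaged 14.8 ± 8.36 FPKM in knockout mice and 38.2 ± 4.37 FPKM in wild-type mice (SD, n = 3 each; adjusted p = 0.0409, limma), and Pxdn, the peroxidase that crosslinks type IV collagen, did not pass (adjusted p = 0.0555). Of the 4 tested enzymes that trim procollagen and their enhancers, Adamts2, Adamts14, Bmp1 and Pcolce, none passed, with log2 fold changes of −0.75 to −0.46. Of 6 collagen receptors tested, Ddr2, the fibrillar collagen receptor of mesenchymal cells, was lower in knockout mice. It had 2.45, 1.98 and 3.34 FPKM in knockout mice against 7.48, 6.01 and 6.05 FPKM in wild-type mice (log2 fold change −1.08, adjusted p = 0.0144, limma). Mrc2, Itga1 and Itga2 had adjusted p-values of 0.0619, 0.126 and 0.243.

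Markers of several cell types moved along with these genes after UUO. Of 7 fibroblast and myofibroblast markers tested, Vim, Pdgfra and Pdgfrb were lower, and the summed level of the list was 66.4 to 148 FPKM in β-catenin knockout mice and 145 to 181 FPKM in wild-type mice. Of 10 macrophage markers 9 were lower (summed 536 to 634 FPKM in knockout mice and 1085 to 1316 FPKM in wild-type mice), and of 10 proximal tubule markers 8 were higher (1411 to 1769 FPKM in knockout mice and 594 to 727 FPKM in wild-type mice). Of 8 endothelial markers Pecam1 was lower and of 8 podocyte markers none was called. All 8 of each list had negative log2 fold changes. The endothelial list summed to 54.0 to 70.5 FPKM in knockout mice and 74.7 to 83.4 FPKM in wild-type mice. The podocyte list summed to 87.1 to 98.7 FPKM in knockout mice and 91.7 to 132 FPKM in wild-type mice. No listed marker was at 0 in a group mean, the lowest being the fibroblast marker Meg3 with 0.187 FPKM in knockout mice and 0.0853 FPKM in wild-type mice. Their part in the lower levels of collagen chains and lysyl oxidases in knockout mice was not tested.

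After UIRI, 34 of the 49 members were tested and none was called in the mice labelled CD44 knockout, where 2.19% of all 16113 genes tested were lower and 4.02% were higher. At an unadjusted p under 0.05 (limma), 11 members were lower and 2 were higher, beside 11.2% and 15.8% of all genes. voom called 5 members lower and 0 higher, beside 4.41% and 5.84% of all genes. The 5 were Col3a1, Col15a1, Col6a1, Col6a3 and Col11a2. Col11a2 passed the filter only through the wild-type mice, so its lower call was favoured by the filter. The median log2 fold change was −0.54 over 8 fibrillar chains, 0.08 over 8 basement membrane chains, −0.37 over 13 other chains and −0.36 over 5 lysyl oxidases, beside 0.00 over all genes. The fibrillar median was −0.33 without labelled knockout mouse 1 and −0.78 without mouse 2. The 12 libraries were scaled in 2 separate tables and the knockouts differ, so the size of change after UUO and after UIRI was not compared by a test.

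Among the fibrillar chains, Col3a1 had 23.3, 59.1 and 42.0 FPKM in the mice labelled CD44 knockout, against 125, 103 and 67.4 FPKM in wild-type mice. Col1a2 had 19.0, 40.2 and 31.2 FPKM in labelled knockout mice, against 65.4, 56.2 and 44.4 FPKM in wild-type mice. Both lay wholly below the wild-type mice, with mouse 2 the highest and mouse 1 the lowest of the labelled knockout mice, and did not pass (log2 fold changes −1.28 and −0.90, adjusted p = 0.0806 and 0.0938, limma). Col1a1 had 22.1, 65.6 and 41.1 FPKM in labelled knockout mice, against 81.2, 61.7 and 49.0 FPKM in wild-type mice, with mouse 2 inside the wild-type range (log2 fold change −0.66, adjusted p = 0.312, limma).

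Col5a2 had 4.55, 9.40 and 5.56 FPKM in labelled knockout mice, against 12.2, 8.42 and 8.18 FPKM in wild-type mice, and Col5a1 had 4.38 to 8.65 FPKM against 7.68 to 11.2 FPKM. Both overlapped through mouse 2 alone. Col5a3, higher after UUO in the other knockout, had 1.47, 2.06 and 1.98 FPKM in labelled knockout mice, against 1.93, 2.31 and 1.64 FPKM in wild-type mice, with full overlap, and so had Col27a1. Col11a2, a chain of cartilage-type fibrils, passed the filter only through the wild-type mice, in which it averaged 0.903 FPKM, against 0.449 FPKM in labelled knockout mice.

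Among basement membrane chains after UIRI, Col15a1 had the lowest p. It had 14.8, 22.5 and 20.2 FPKM in labelled knockout mice, against 38.1, 35.0 and 28.1 FPKM in wild-type mice. The groups did not overlap, and at an adjusted p of 0.0508 (limma, log2 fold change −0.79, standard error 0.18) it came closest of all members to the threshold, which it passed with voom, with a filter at 1 FPKM and without labelled knockout mouse 2 (adjusted p 0.0254 to 0.148 over its alternatives). Together with Col3a1 and Col1a2 it was 1 of 3 members, of the 30 tested in both tables, whose knockout mice lay wholly below the wild-type mice in both. The same held for 5.66% of the 15489 genes tested in both tables, and after UIRI alone the groups lay apart in this direction for 14.5% of all genes.

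No type IV chain passed the test after UIRI. Col4a1 had 105, 126 and 108 FPKM in labelled knockout mice, against 131, 92.0 and 94.4 FPKM in wild-type mice. Col4a2 had 75.9, 102 and 77.9 FPKM in labelled knockout mice, against 101, 76.0 and 70.4 FPKM in wild-type mice. In both genes wild-type mouse 1 lay among or above the labelled knockout mice, and the log2 fold changes were 0.11 and 0.05 (adjusted p = 0.711 and 0.881, limma).

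Col4a3 had 10.8, 12.6 and 10.5 FPKM in labelled knockout mice, against 10.9, 9.17 and 9.94 FPKM in wild-type mice. Col4a4 had 18.2, 17.7 and 15.8 FPKM in labelled knockout mice, against 14.6, 14.9 and 13.4 FPKM in wild-type mice. Col4a4 did not overlap and still did not pass (log2 fold change 0.25, adjusted p = 0.122, limma). Col4a5 (8.85, 10.3 and 10.2 FPKM against 8.77, 9.53 and 9.72 FPKM in wild-type mice) and Col4a6 (0.753, 1.70 and 1.13 FPKM against 1.49, 1.59 and 1.23 FPKM in wild-type mice) overlapped. Col18a1, the chain with the highest level in this table, had 120.5, 125 and 116 FPKM in labelled knockout mice, against 115, 116 and 98.8 FPKM in wild-type mice (log2 fold change 0.14, adjusted p = 0.428, limma).

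Of the other chains after UIRI, those of type VI collagen were picked after their values were seen. Col6a1 had 13.4, 15.8 and 16.4 FPKM in labelled knockout mice, against 29.6, 25.7 and 19.6 FPKM in wild-type mice. Col6a3 had 5.10, 6.31 and 5.51 FPKM in labelled knockout mice, against 10.7, 9.28 and 7.18 FPKM in wild-type mice. Col6a1, Col6a2 and Col6a3 all lay wholly below the wild-type mice, with log2 fold changes of −0.67, −0.49 and −0.59 and adjusted p-values of 0.0558, 0.115 and 0.0634 (limma). Col12a1 showed the widest spread of any tested member, with 2.75, 20.51 and 5.73 FPKM in labelled knockout mice and 14.9, 6.33 and 8.35 FPKM in wild-type mice (standard error 0.63 on the log2 scale). Col8a1, which fell after UUO, had 2.83, 3.43 and 1.17 FPKM in labelled knockout mice, against 4.46, 1.87 and 4.49 FPKM in wild-type mice, with overlap (adjusted p = 0.489, limma).

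No lysyl oxidase was called after UIRI. Lox had 2.38, 9.93 and 4.30 FPKM in labelled knockout mice, against 14.4, 9.42 and 9.37 FPKM in wild-type mice. Loxl2 had 4.69, 8.01 and 6.36 FPKM in labelled knockout mice, against 11.6, 9.38 and 7.88 FPKM in wild-type mice. Loxl3 had 2.61, 3.94 and 2.87 FPKM in labelled knockout mice, against 4.92, 3.87 and 4.07 FPKM in wild-type mice. In these 3 genes mouse 2 alone reached into the wild-type range, and none passed (adjusted p = 0.167, 0.137 and 0.167, limma). Loxl1 had 20.9, 24.0 and 13.2 FPKM in labelled knockout mice, against 20.3, 19.8 and 16.7 FPKM in wild-type mice, with overlap and a difference of −0.01 on the log2 scale. Loxl4 had 1.40, 1.11 and 1.55 FPKM in labelled knockout mice, against 1.10, 0.826 and 0.42 FPKM in wild-type mice. Its groups lay just apart, with the labelled knockout mice higher (log2 fold change 0.41, adjusted p = 0.184, limma).

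Labelled CD44 knockout mouse 2 was the highest of its group for 23 of the 34 tested members, and mouse 1 the lowest for 22. Leaving mouse 2 out therefore lowers the knockout mean of those 23 members by construction. Without mouse 2, 9 members were called lower, beside 4.73% of all genes in that fit, and none was called higher, beside 8.79%: Col1a2, Col3a1, Col5a1, Col5a2, Col15a1, Col6a3, Col8a2, Lox and Loxl3. Without any 1 of the other 5 mice no member was called, and over all genes at most 5 were then called in either direction. The summed fibrillar level was 82.3, 190.5 and 133 FPKM in labelled knockout mice, against 303, 248 and 186 FPKM in wild-type mice, overlapping through mouse 2, and the summed basement membrane level was 354, 418 and 359.8 FPKM, against 421, 354 and 326 FPKM in wild-type mice. The ratio of the 2 was 0.232, 0.456 and 0.37 in labelled knockout mice, against 0.72, 0.70 and 0.571 in wild-type mice, without overlap.

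Of the 36 processing, partner and receptor genes tested after UIRI, 2 were higher and 3 were lower, beside 4.02% and 2.19% of all genes. P3h2 and P4ha2, prolyl hydroxylases that act on nascent chains, were higher in labelled knockout mice. P3h2 had 13.7, 16.1 and 14.2 FPKM in labelled knockout mice against 8.91, 9.38 and 9.55 FPKM in wild-type mice (log2 fold change 0.61, adjusted p = 0.0267, limma). P4ha2 averaged 10.7 ± 0.701 FPKM in labelled knockout mice and 7.53 ± 0.34 FPKM in wild-type mice (SD, n = 3 each; adjusted p = 0.0347, limma). Dcn was lower in labelled knockout mice. It had 5.33, 7.20 and 6.90 FPKM in labelled knockout mice against 16.4, 14.8 and 13.8 FPKM in wild-type mice (log2 fold change −1.10, adjusted p = 0.0265, limma). Bgn averaged 69.4 ± 9.02 FPKM in labelled knockout mice and 113 ± 12.3 FPKM in wild-type mice, and Ddr2 averaged 2.46 ± 0.214 FPKM in labelled knockout mice and 4.66 ± 0.802 FPKM in wild-type mice (SD, n = 3 each; adjusted p = 0.0357 and 0.0348, limma). None of these 5 calls held with every library left out in turn. Genes near the threshold on their lists were P3h3 (adjusted p = 0.0611), Sparc (0.0613), Lum (0.0642), Pxdn (0.0951), Ddr1 (0.0704), Mrc2 (0.0735) and Itga10 (0.0938), and of the trimming enzymes Bmp1, Pcolce, Adamts2 and Adamts14 had adjusted p-values of 0.139 to 0.632.

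Cell type markers differed between labelled knockout and wild-type mice after UIRI too. Of 7 fibroblast markers tested Pdgfra and Vim were lower, and the list summed to 96.1 to 186 FPKM in labelled knockout mice and 153 to 232 FPKM in wild-type mice. Of 10 macrophage markers 6 were lower (767 to 1369 FPKM in labelled knockout mice and 2030 to 2109 FPKM in wild-type mice), and of 10 proximal tubule markers 4 were higher (879.6 to 1641 FPKM in labelled knockout mice and 526 to 588 FPKM in wild-type mice). No endothelial or podocyte marker was called. The endothelial list summed to 43.0 to 57.8 FPKM in labelled knockout mice and 57.0 to 65.5 FPKM in wild-type mice. The podocyte list summed to 67.7 to 87.4 FPKM in labelled knockout mice and 89.8 to 100.6 FPKM in wild-type mice. Mouse 2 was the labelled knockout mouse nearest to the wild-type mice on the fibroblast, macrophage and proximal tubule sums, as on the fibrillar sum. Their part in the collagen values was not tested.

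Of the members, 14 were tested in neither table: Col2a1, Col11a1, Col24a1, Col6a4, Col6a5, Col6a6, Col9a1, Col9a2, Col10a1, Col19a1, Col22a1, Col23a1, Col25a1 and Col28a1. Most of them are chains of cartilage, skin, nerve or muscle. Just outside the filter after UUO was Col8a2, at a mean of 0.479 FPKM, and just inside was Col7a1, at 0.507 FPKM. After UIRI Col13a1 was just outside at 0.405 FPKM and Col9a3 just inside at 0.513 FPKM. Col9a1, a cartilage chain, had 0 reads in all 6 libraries after UUO, which allows up to 3 reads or 0.0305 to 0.0372 FPKM in a library, counting error only. Of the 49 members, 9 share bases with another gene of at least 0.5 FPKM in either table, among them Col18a1 with Slc19a1 (27.7 FPKM after UUO), Col15a1 with the antisense gene Gm12426 (2.51 FPKM) and Col4a1 with the antisense gene Gm15418 (2.93 FPKM). The library kit is not stated to keep strand, so reads from shared bases could have been set to either gene or dropped.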

How the data were processed

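Kidney RNA libraries (NEBNext Ultra RNA kit) of 12 mice were deposited as FPKM per gene, in 1 table for each knockout and the wild-type mice set against it. Per the submitters' processing notes the authors used HISAT2 2.0.5, featureCounts 1.5.0-p3, DESeq2 1.20.0 and GRCm38, and the deposited FPKM were made by the authors from read count and gene length. Wild-type columns were assigned by the knockout in the same table. Multiplied by gene length, 100% of FPKM values were whole multiples of what 1 read is worth in their library (tolerance 0.01 read), from which reads were recovered. Each table was fitted alone.

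Groups were compared with limma 3.58.1 in R 4.3.3 (lmFit, then eBayes with trend) on log2(FPKM + 1). Genes under a mean of 0.5 FPKM in the 6 libraries of a table were left out. Tests were two-sided, p-values were adjusted by Benjamini-Hochberg over all genes tested, and the threshold was 0.05. The pseudocount of 1 understates changes of low genes. The code was tested on simulated reads with known changes and the same spread set for all genes. Of 67 changes of 2-fold, limma called 34 with UUO levels and 28 with UIRI levels. It called 3 and 2 of 67 changes of 1.5-fold and 60 and 62 of 66 changes of 4-fold. There were 13 wrong calls for each table. These rates do not carry over to genes that vary more among mice than the simulated reads, as Col1a1 did in β-catenin knockout mice. Alternatives were a pseudocount of 0.1, no filter, a filter at 1 FPKM, rescaling to TPM, no trend, voom (recovered reads), replicate number as block, and leaving out each of the 6 libraries. Members and lists were chosen with earlier results of these data known. Values per mouse are given for members called in either table, the 6 members with the highest mean in each table, the 3 type IV pairs and the lysyl oxidases, and the 4 genes with the smallest p of each pathway list are named. Other members given by value were picked after their values were seen. Figures were drawn with Python 3.11.15 and Matplotlib 3.10.9. Nothing in the labels says how the mice of a group relate beyond being separate samples, so p-values measure the spread between these samples.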

Additional observations from a re-analysis of the deposited data

How the results depend on the processing

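After UUO, 8 members were called lower and 1 higher. The lower count was 1 with no filter, 13 with FPKM rescaled to TPM and 1 to 12 with 1 library left out, and the higher count was 0 with a pseudocount of 0.1, with no filter and with TPM, and 0 to 1 with 1 library left out. Over all genes after UUO, 1004 were higher and 705 lower, against 280 and 193 with no filter, 564 and 1166 with TPM, and 130 to 1631 and 98 to 818 with 1 library left out. TPM moved the median of all genes to −0.16 after UUO and to −0.10 after UIRI on the log2 scale. The fibrillar median of −0.78 was −0.019 with no filter, which adds the chains near 0, and −1.02 to −0.62 with 1 library left out. The log2 ratio of summed basement membrane levels, −0.40, was −0.61 with TPM. After UIRI, 0 members were called lower, against 1 with a filter at 1 FPKM, 5 with voom and 0 to 9 with 1 library left out. Over all genes after UIRI, 648 were higher and 353 lower, against 43 and 20 with no filter, 214 and 467 with TPM, 941 and 711 with voom, and 0 to 1417 and 1 to 763 with 1 library left out. No member past the threshold changed sign. Other causes were not tested. Chains under 1 FPKM rest on few reads, as Col20a1 on 47 to 54 reads in β-catenin knockout mice and 79 to 92 reads in wild-type mice.

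Replicate numbers recur in each group. The r of deviations of same-numbered mice was 0.08, 0.20 and 0.04 after UUO and −0.14, −0.03 and −0.03 after UIRI. Differently numbered mice had −0.16 to 0.08 after UUO and −0.11 to 0.15 after UIRI. With 3 mice per group, each centred on its own mean, these values cannot decide whether same-numbered mice were paired. With the replicate number as a block, Col5a2, Col8a1 and Col5a3 lost and Col1a2, Col5a1 and Col14a1 gained a call after UUO, so that 9 members were lower and 0 higher (992 and 675 of all genes higher and lower), and 0 members and 0 genes in either direction were called after UIRI.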

Other observations

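The ratio of the levels of different chains within a library does not depend on the scaling of that library. Col3a1 over Col1a1, the RNA of a type III chain over that of a type I chain, was compared first. It was 1.05, 0.901 and 1.02 in mice labelled CD44 knockout, against 1.55, 1.67 and 1.38 in wild-type mice after UIRI, without overlap. After UUO it was 0.758, 1.11 and 1.12 in β-catenin knockout mice, against 1.08, 1.28 and 1.25 in wild-type mice, where the groups overlapped. Col1a1 over Col1a2, the chains of type I collagen, was 1.16, 1.63 and 1.32 in labelled CD44 knockout mice, against 1.24, 1.10 and 1.10 in wild-type mice, and 1.59, 1.15 and 1.04 in β-catenin knockout mice, against 1.27, 0.994 and 1.38 in wild-type mice. Both overlapped. Col6a1 over Col6a3 stayed close after UIRI, at 2.63, 2.50 and 2.97 in labelled CD44 knockout mice, against 2.76, 2.77 and 2.74 in wild-type mice. After UUO it varied more, at 2.54, 5.52 and 3.56 in β-catenin knockout mice, against 2.22, 1.67 and 2.91 in wild-type mice, with overlap. These ratios were picked from many possible ones and were not tested.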
